A study of Mus musculus with 4 samples.

Results

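The mitochondrial solute carriers of the SLC25 family were described in fetal brown adipose tissue (BAT) of mice. Members were the protein-coding genes of the total count table whose symbol starts with Slc25a, apart from Slc25a1 and Slc25a20, which the rule leaves out. This gave 45 genes of 22298 in the table, 21783 of them protein-coding. By substrate, 10 members carry nucleotides, 1 carries phosphate, 9 carry amino acids, 3 carry dicarboxylates and 11 carry cofactors or metals. The remaining 11 were grouped here as orphans or relatives of the uncoupling proteins, whose substrate was taken as unknown or debated.

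SLC25 carriers move metabolites across the inner mitochondrial membrane, which is otherwise tight to charged molecules. The ADP/ATP carriers exchange ATP made in the matrix for cytosolic ADP, the phosphate carrier brings in the phosphate that ATP synthase needs, and the aspartate/glutamate and 2-oxoglutarate/malate carriers form the malate-aspartate shuttle, which brings reducing equivalents from cytosolic NADH into the matrix. Brown fat is rich in mitochondria, and its uncoupling protein UCP1 is itself a member of this protein superfamily, although its symbol does not begin with Slc25a.

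Fetuses were labelled C57BL/6 (C57BL/6J in the study's methods), taken at E18.5, the end of gestation, and labelled male. Dams of the control group drank tap water and dams of the fructose group drank water with 20% (w/v) fructose during gestation. BAT of each group gave 2 RNA-seq libraries, 4 in all. The sources do not say how many fetuses or litters stand behind a library, so the p-values below measure only the spread between these libraries, which may be technical. The comparison asks how maternal fructose intake relates to RNA levels in the fetal depot.

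Total counts were 18542897 to 19224529 in control and 22461298 to 23645147 in fructose. Of the brown adipocyte markers, Ucp1 was at 9606 to 12425 CPM (counts scaled to the library total, with TMM normalisation). Fabp4 was at 5307 to 6221 CPM and Cidea at 3236 to 3343 CPM, while Dio2 was at 4.43 to 9.06 CPM and Ppargc1a at 6.91 to 17.9 CPM. The 4 Y-linked genes checked had 422 and 390 counts together in the control libraries and 0 in both fructose libraries, against the label male. The lack of Y-linked reads and the treatment therefore cannot be told apart in these libraries. All 10 skeletal muscle markers were higher in fructose, with summed levels of 258 and 351 CPM in control against 822 and 613 CPM in fructose. Of 7 erythroid markers tested, 5 were lower, with summed levels of 19204 and 15294 CPM in control against 11766 and 12141 CPM in fructose. With length and GC trends removed, the 10 muscle markers were still higher, and 0 of the erythroid markers were lower. Of 10 brown adipocyte markers 3 were higher (Elovl3, Ppargc1a and Ebf2) and 1 was lower (Adipoq), and of 5 macrophage markers 1 was higher (Mrc1). Over all genes tested, 15.5% were called higher and 10.7% lower. Of 5 cardiomyocyte markers the 1 tested (Myl4) was higher. The others (Myh6, Nppa, Myl7 and Tnni3) had 0 to 5 counts per library, too few to test. Of 6 hepatocyte markers 4 were at 0. With both trends removed, 1 brown adipocyte marker was higher and 0 lower, and 0 macrophage markers were higher. Mitochondrially encoded genes took 5.89% and 6.49% of counts in control and 10.8% and 11.2% in fructose. In bulk tissue, fewer cells of a type and less RNA per cell cannot be told apart.

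The ADP/ATP carriers Slc25a4 (ANT1, chr8:46206797-46211284, minus strand) and Slc25a5 (ANT2, chrX:36795651-36798807, plus strand) are the closest relatives among the paralog pairs compared, and their start is shown because their balance is described below. Their coding sequences were 894 bases each without the stop codon and 77.4% identical. Of the first 90 coding bases, printed from the GENCODE M21 transcripts of GRCm38, 24 differ and are in capitals.
Slc25a4: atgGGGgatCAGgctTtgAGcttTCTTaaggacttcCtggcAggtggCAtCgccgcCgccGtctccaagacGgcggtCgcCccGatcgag
Slc25a5: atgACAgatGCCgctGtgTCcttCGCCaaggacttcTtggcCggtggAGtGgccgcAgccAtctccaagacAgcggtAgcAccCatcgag
The longest stretch that is the same in both was 20 bases, coding bases 322 to 341, which read cagttctggcgctactttgc. How reads matching more than 1 gene were counted is not given in the sources used here, so the levels of both genes carry that uncertainty.

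RefSeq promoter windows (GRCm38.p6) were given for 34 of the 45 members, in 44 windows. The 250 bases before the start were searched on both strands for the letters of 6 motifs of mitochondrial and housekeeping promoters. The GC box GGGCGG was in 68.2% of member windows and in 32.7% of all 32851 promoter windows. The E-box CACGTG was in 15.9% against 6.02%, the GABPA motif CCGGAAG in 11.4% against 6.91%, and the NRF1 motif GCGCATGC in 4.55% against 2.26%. The cAMP response element TGACGTCA was in 4.55% against 1.55%, and the ERR motif AAGGTCA in 2.27% against 4.08%. These shares describe letters in a window and were not set against chance. Upstream windows are printed for the 2 members with the lowest adjusted p-value in each direction among the 14 with a window free of annotated exons. Capitals mark motif matches, and a window with no capitals holds none of the 6 motifs.
Slc25a16, chr10:62920383-62920632, plus strand: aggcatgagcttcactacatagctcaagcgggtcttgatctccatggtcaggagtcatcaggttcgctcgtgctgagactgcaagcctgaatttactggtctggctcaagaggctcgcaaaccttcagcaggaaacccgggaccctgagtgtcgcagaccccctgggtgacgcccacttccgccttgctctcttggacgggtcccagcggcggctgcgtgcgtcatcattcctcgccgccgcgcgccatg
Slc25a24, chr3:109122899-109123148, plus strand: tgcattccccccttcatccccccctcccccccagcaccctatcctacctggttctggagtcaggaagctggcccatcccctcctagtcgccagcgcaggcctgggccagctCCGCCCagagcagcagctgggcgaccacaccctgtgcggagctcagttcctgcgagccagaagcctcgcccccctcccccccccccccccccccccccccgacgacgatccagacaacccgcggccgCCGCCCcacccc
Slc25a28, chr19:43674882-43675131, minus strand: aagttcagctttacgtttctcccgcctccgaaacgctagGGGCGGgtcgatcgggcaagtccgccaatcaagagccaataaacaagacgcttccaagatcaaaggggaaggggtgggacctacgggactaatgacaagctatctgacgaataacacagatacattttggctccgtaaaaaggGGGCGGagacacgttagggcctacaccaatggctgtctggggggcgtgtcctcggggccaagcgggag
Slc25a34, chr4:141623835-141624084, minus strand: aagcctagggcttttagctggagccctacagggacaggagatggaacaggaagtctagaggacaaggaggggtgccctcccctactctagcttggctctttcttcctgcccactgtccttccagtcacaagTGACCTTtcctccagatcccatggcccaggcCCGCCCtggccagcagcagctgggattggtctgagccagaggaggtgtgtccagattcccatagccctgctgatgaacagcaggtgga
The first pair was higher and the second pair lower in fructose. The capitals of Slc25a24 and Slc25a28 are GC boxes, and those of Slc25a34 are an ERR motif and a GC box.

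A total of 36 members had enough counts to be tested, and 9 did not. With edgeR's quasi-likelihood test and a Benjamini-Hochberg adjusted p-value under 0.05, 6 members were higher and 5 were lower in fructose. The 6 were Slc25a46, Slc25a24, Slc25a40, Slc25a30, Slc25a16 and Slc25a36, and the lower ones included Slc25a28, Slc25a34, Slc25a39 and Slc25a11. The higher members made up 16.7% of those tested, beside 15.5% of all 12888 genes tested, and the lower members 13.9% beside 10.7%. Both shares were near the background. The median log2 fold change of the 36 was -0.11 (quartiles -0.22 and 0.14), beside 0.0025 for all genes tested. A negative value was found in 24 of the 36, beside 6406 of all 12888 genes.

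The calls varied with the length and base composition of the transcripts. When the trends of log counts with transcript length and GC content were removed from each library, 0 members were higher and 0 lower in edgeR's test, beside 3.4% and 3.23% of all genes. At an unadjusted p-value under 0.05, 6 members were then higher and 1 lower, and the smallest adjusted p-value was 0.075, that of Slc25a4. Every call of a member was therefore lost in that fit, and the log2 fold change there is given beside each call below.

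**Figure D1:**
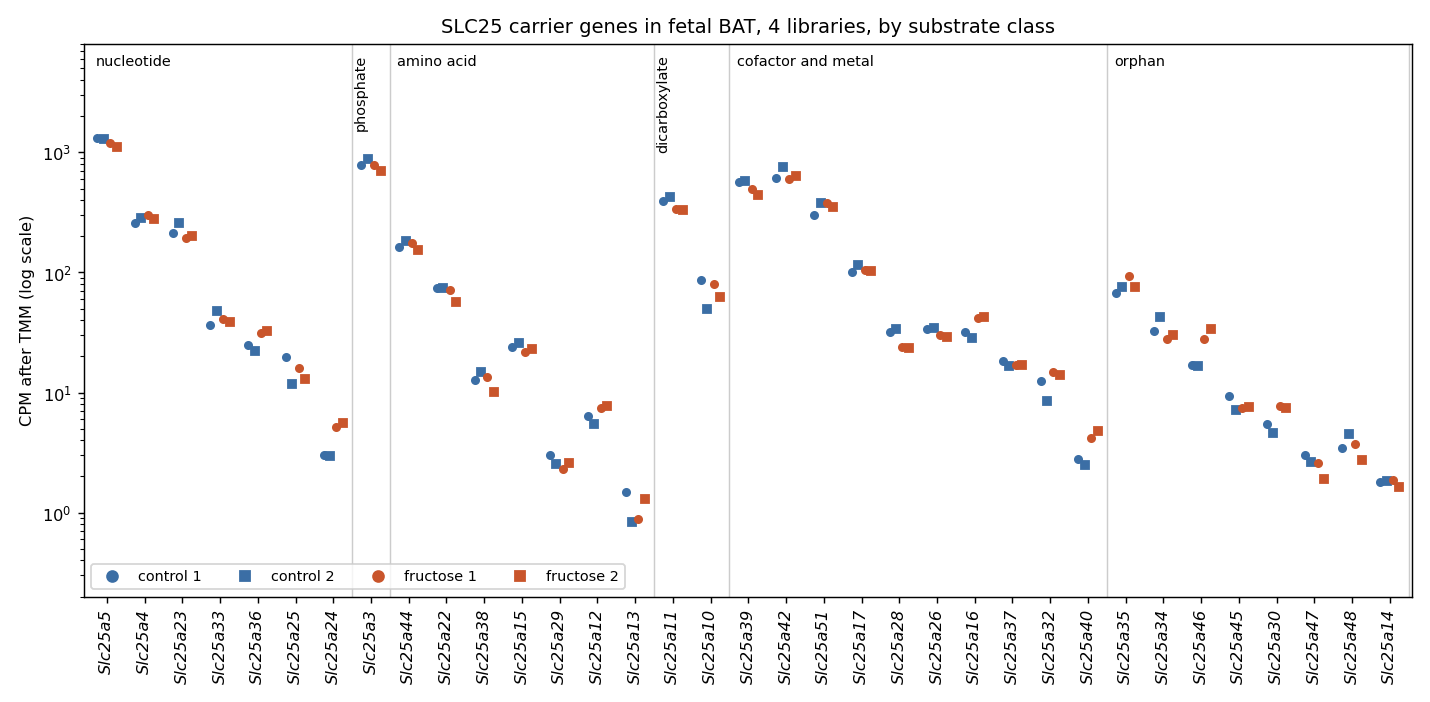
Level of 35 tested SLC25 genes in each library, in CPM after TMM on a log axis, grouped by substrate class and ordered within a class by level per transcript length; circles and squares are the first and second library of a group, blue control and orange fructose. Slc25a5 and Slc25a3 lie highest, and the 4 points of most genes lie close together beside the differences between genes.

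Per transcript length (TPM, counts divided by exon length and scaled to a fixed sum in each library), Slc25a5 averaged 1713 TPM over the 4 libraries, Slc25a3 843 TPM, Slc25a39 531 TPM and Slc25a11 376 TPM. The coenzyme A carrier Slc25a42 averaged 353 TPM and Slc25a4 253 TPM, and neighbours in level were not always apart: Slc25a11 ranged from 350 to 419 TPM and Slc25a42 from 319 to 400 TPM. The sum over all members was 5435 ± 236 TPM (SD, n = 2) in control and 5093 ± 120 TPM (SD, n = 2) in fructose, which is 0.527% and 0.56% of all TPM in control and 0.518% and 0.501% in fructose. Both fructose libraries lay below both controls. Nucleotide carriers held 39.4% to 41% of the family sum in the 4 libraries, cofactor and metal carriers 29.8% to 31.6%, the phosphate carrier 15.6% to 16.4%, dicarboxylate carriers 8.1% to 8.66%, amino acid carriers 2.84% to 3.09% and orphans 1.38% to 1.75%. The shares of the orphans and of the dicarboxylate carriers did not overlap between the groups. Among single genes such separation was common: 33.4% of all tested had both fructose libraries above both controls, and 31.6% had both below. Orphans held 1.38% and 1.46% of the sum in control against 1.75% and 1.72% in fructose. Their sum includes Slc25a35, whose level is uncertain, as given below. Dicarboxylate carriers held 8.66% and 8.22% against 8.1% and 8.12%, and their controls lay farther apart than the gap between the groups.

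Among the nucleotide carriers, 2 of 7 tested members rose and 0 fell, beside 15.5% and 10.7% of all genes tested. Slc25a5 was at 1316 and 1306 CPM in control and at 1187 and 1114 CPM in fructose. Both fructose libraries lay below both controls, yet the log2 fold change of -0.19 ± 0.09 (SE) did not pass the test (adjusted p = 0.13 with edgeR). Slc25a5 is X-linked. Slc25a4, the isoform of heart and muscle, was at 261 and 283 CPM in control and at 304 and 278 CPM in fructose, and the groups overlapped (log2 fold change 0.10 ± 0.09 SE, edgeR adjusted p = 0.44). With both trends removed its value was 0.27, and the muscle markers above were higher in the same libraries. The part of muscle cells in the level of Slc25a4 was not tested.

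The calcium-regulated ATP-Mg/phosphate carriers SCaMC-1 to SCaMC-3 adjust the adenine nucleotide pool of the matrix. Slc25a24 (SCaMC-1, chr3:109123149-109168457) had 57 and 53 counts in control and 117 and 136 in fructose, or 3.01 and 2.94 CPM against 5.17 and 5.55 CPM. It rose 1.8-fold (log2 0.85 ± 0.22 SE, edgeR adjusted p = 0.015), and the log2 value was 0.50 with both trends removed (adjusted p = 0.19). Neither of its relatives passed the test. Slc25a25 (SCaMC-2) was at 19.7 and 11.9 CPM in control and at 16.1 and 12.9 CPM in fructose, and the groups overlapped. Slc25a23 (SCaMC-3), the most abundant of them, was at 213 and 257 CPM in control and at 192 and 202 CPM in fructose, with a log2 fold change of -0.25 ± 0.10 (SE) that did not pass (edgeR adjusted p = 0.076). Exons of Slc25a25 share 379 bases with Naif1 on the other strand, and whether counting used strand is not given in the sources used here.

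Pyrimidine nucleotide carriers supply the matrix with precursors for mitochondrial DNA and RNA. Slc25a36 (PNC2, chr9:97074961-97111157) was at 24.8 and 22.0 CPM in control and at 31.5 and 32.5 CPM in fructose. The groups were apart, and the gene rose 1.37-fold (log2 0.45 ± 0.11 SE, edgeR adjusted p = 0.0094). Its direction turned, however, to -0.17 with both trends removed (adjusted p = 0.35) and to -0.10 with the GC trend alone. Slc25a33 (PNC1) was at 36.7 and 48.2 CPM in control and at 40.9 and 38.9 CPM in fructose, within the spread of the controls.

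The phosphate carrier Slc25a3 (PiC, chr10:91116574-91124059) was at 791 and 882 CPM in control and at 778 and 698 CPM in fructose. Both fructose libraries lay below both controls, and the log2 fold change of -0.18 ± 0.09 (SE) did not pass (edgeR adjusted p = 0.18). The test called it lower when control replicate 1 was left out (log2 -0.26, adjusted p = 0.023).

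None of the 7 tested amino acid carriers was called in either direction, beside 15.5% of all genes tested called higher and 10.7% lower. None of the 7 had an unadjusted p-value under 0.05 with edgeR or DESeq2. Their median log2 fold change was -0.14, with 6 of 7 negative, beside 6406 negative of all 12888 genes tested. With both trends removed the median of these carriers was -0.019. Slc25a44, which takes branched-chain amino acids into brown fat mitochondria, was the most abundant of them per length at 82 TPM. It was at 164 and 184 CPM in control and at 177 and 155 CPM in fructose, and the groups overlapped. The glutamate carrier Slc25a22 was at 74.5 and 74.0 CPM in control and at 71.2 and 57.0 CPM in fructose, with its second fructose library well below the others and a log2 fold change of -0.21 ± 0.10 (SE). Without fructose replicate 1 that value was -0.38 and passed the test (adjusted p = 0.028). The aspartate/glutamate carriers were rare here. Slc25a12 (aralar) was at 6.39 and 5.49 CPM in control and at 7.43 and 7.72 CPM in fructose (log2 0.35 ± 0.18 SE, edgeR adjusted p = 0.17). Slc25a13 (citrin) had only 15 to 32 counts per library and overlapped between groups. Slc25a15, the ornithine carrier, was at 23.7 and 26.0 CPM in control and at 21.8 and 23.3 CPM in fructose. Slc25a38, which supplies glycine for haem synthesis, ranged from 10.2 to 15 CPM and Slc25a29, a carrier of basic amino acids, from 2.3 to 3.01 CPM, both with overlap between the groups.

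Of the dicarboxylate carriers, 1 of 2 tested fell, beside 10.7% of all genes tested. Slc25a11, the 2-oxoglutarate/malate carrier (chr11:70644196-70647479), was at 395 and 426 CPM in control and at 341 and 331 CPM in fructose. It was 0.82 times the control level (log2 -0.29 ± 0.08 SE, edgeR adjusted p = 0.025), and -0.05 on the log2 scale with both trends removed. Its exons share 189 bases with Rnf167 on the other strand. The dicarboxylate carrier Slc25a10, which exchanges malate or succinate for phosphate, varied more within the control group than between groups, at 86 and 49.2 CPM in control and at 80 and 63 CPM in fructose. Its call hung on single libraries: without control replicate 1 it was higher (log2 0.54, adjusted p = 1.3e-05), and without control replicate 2 it was lower (log2 -0.27, adjusted p = 0.032).

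All 11 cofactor and metal carriers were tested, of which 2 rose and 3 fell, beside 15.5% and 10.7% of all genes tested. Both glutathione carriers were called, in opposite directions. Slc25a39 (chr11:102402985-102407946), by far the more abundant, was at 571 and 574 CPM in control and at 492 and 439 CPM in fructose (log2 -0.30 ± 0.09 SE, edgeR adjusted p = 0.026). Slc25a40 (chr5:8422850-8454797) had 53 and 45 counts in control and 94 and 118 in fructose, or 2.80 and 2.50 CPM against 4.16 and 4.82 CPM (log2 0.76 ± 0.24 SE, edgeR adjusted p = 0.036). With both trends removed, the log2 value of Slc25a39 was 0.02 and that of Slc25a40 was 0.28. The transcript of Slc25a39 had a GC content of 59.7% and that of Slc25a40 39.7%.

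Mitoferrins import iron for haem and iron-sulfur clusters. Slc25a28 (mitoferrin-2, chr19:43663801-43674881) was at 31.7 and 33.5 CPM in control and at 24.0 and 23.6 CPM in fructose, and fell to 0.728 times the control level (log2 -0.46 ± 0.10 SE, edgeR adjusted p = 0.007). With both trends removed the log2 value was -0.11. Slc25a37, mitoferrin-1 of erythroid cells, was at 18.2 and 16.6 CPM in control and at 16.8 and 17 CPM in fructose, with a log2 fold change of -0.04. Erythroid markers were lower in the same fructose libraries, as given above, and their part in the levels of haem-related carriers was not tested.

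Among the carriers of coenzyme A, Slc25a16 (chr10:62920633-62946498) was at 32.1 and 28.4 CPM in control and at 41.7 and 42.2 CPM in fructose. It rose 1.38-fold (log2 0.47 ± 0.10 SE, edgeR adjusted p = 0.0055), with a log2 value of 0.21 when both trends were removed. The far more abundant Slc25a42 was at 610 and 759 CPM in control and at 604 and 639 CPM in fructose, and the groups overlapped. The folate and FAD carrier Slc25a32 was at 12.4 and 8.54 CPM in control and at 14.7 and 14.1 CPM in fructose. Its log2 fold change of 0.46 ± 0.17 (SE) did not pass (edgeR adjusted p = 0.072) and was -0.16 with both trends removed. With the replicate block, which pairs libraries of the same number, it passed (adjusted p = 0.031). The NAD carrier Slc25a51, the S-adenosylmethionine carrier Slc25a26 and the peroxisomal carrier Slc25a17 had log2 fold changes of 0.10, -0.21 and -0.06, none of which passed.

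Of the orphans and relatives of the uncoupling proteins, 2 of 8 tested rose and 1 fell, beside 15.5% and 10.7% of all genes tested. Slc25a46, an outer membrane protein that acts in mitochondrial dynamics rather than as a known carrier, lies on chromosome 18. It was at 17 and 16.7 CPM in control and at 28.1 and 33.6 CPM in fructose, which is a 1.83-fold rise (log2 0.87 ± 0.12 SE, edgeR adjusted p = 0.00073). No other tested member had a larger log2 fold change or a smaller adjusted p-value in this fit. With both trends removed the log2 value was 0.32 (adjusted p = 0.11). Exons of Slc25a46 share 383 bases with B930094E09Rik on the other strand.

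Slc25a30 (KMCP1, chr14:75760117-75787037) was at 5.49 and 4.60 CPM in control and at 7.78 and 7.39 CPM in fructose (log2 0.59 ± 0.19 SE, edgeR adjusted p = 0.038, and 0.40 with both trends removed). Its relative Slc25a14 (UCP5, X-linked) ranged from 1.63 to 1.86 CPM over the 4 libraries. Slc25a34 (chr4:141618824-141623821) was at 32.7 and 42.3 CPM in control and at 28.1 and 30.0 CPM in fructose (log2 -0.37 ± 0.12 SE, edgeR adjusted p = 0.044, and -0.17 with both trends removed). The controls of Slc25a34 lay farther apart than the gap between the groups. Slc25a35 was at 67.4 and 75.4 CPM in control and at 94.1 and 75.3 CPM in fructose, so the groups overlapped (log2 0.25 ± 0.11 SE, edgeR adjusted p = 0.12). It was called higher without control replicate 2 (log2 0.33, adjusted p = 0.0088) and without fructose replicate 2 (log2 0.40, adjusted p = 0.02). Exons of Slc25a35 share 1151 bases with Rangrf on the other strand, so its level is uncertain. The remaining orphans Slc25a45, Slc25a47 and Slc25a48 had log2 fold changes of -0.14, -0.33 and -0.30, and none passed.

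The 9 members that were not tested had few or no counts. Slc25a41 and Slc25a54 had 0 counts in all 4 libraries, where a count of 0 allows up to 0.156, 0.162, 0.134 and 0.127 CPM (3 counts, counting error only). Slc25a31, the ADP/ATP carrier of male germ cells, had 3, 1, 0 and 3 counts in control 1, control 2, fructose 1 and fructose 2. Slc25a2 had 5, 1, 2 and 1 counts in that order, Slc25a18 2, 0, 1 and 0, and Slc25a43 0, 4, 1 and 6. Slc25a53 had 6, 6, 9 and 7 counts, Slc25a27 (UCP4) had 6, 5, 14 and 8, and Slc25a21 had 3, 3, 5 and 11. These carriers were at or near the limit of detection, and no fold change is given for them.

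**Figure D2:**
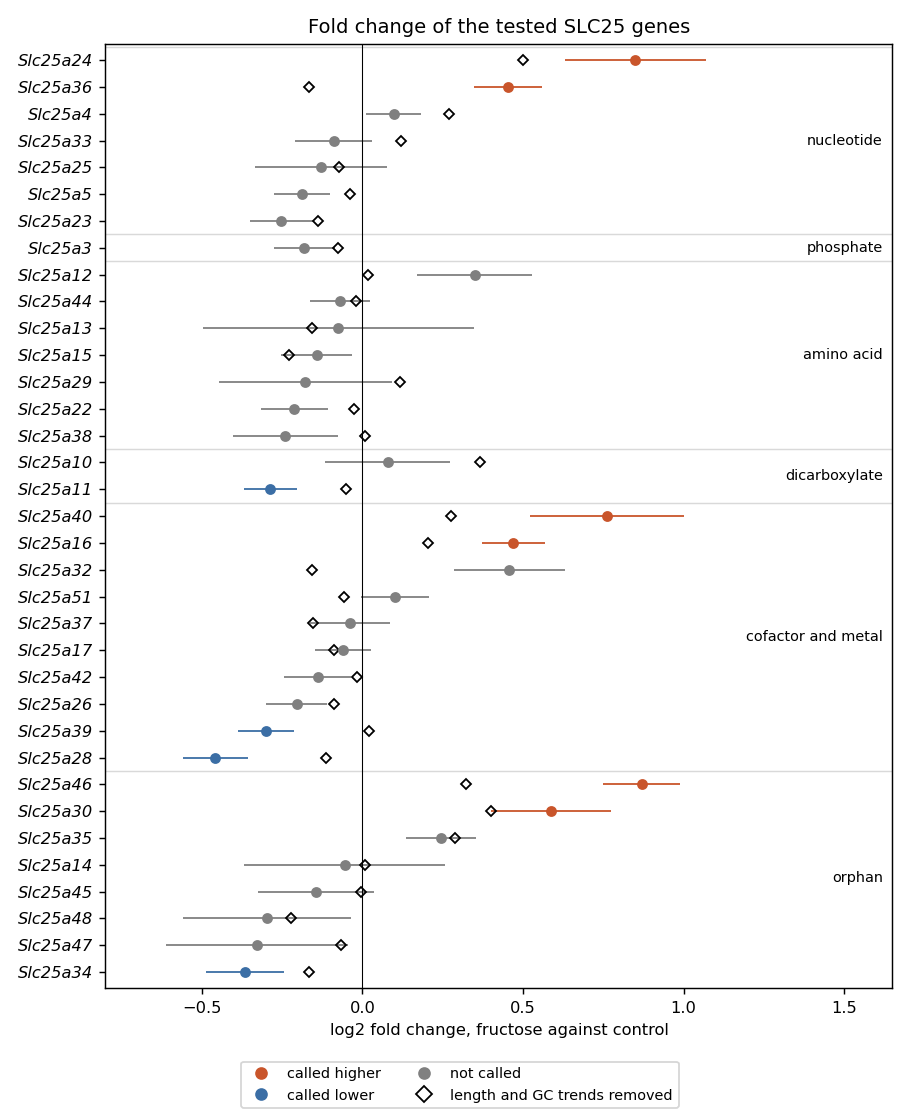
Log2 fold change of fructose against control for 35 tested SLC25 genes by substrate class; filled points are edgeR estimates on TMM-normalised counts with bars of 1 SE, coloured orange (called higher), blue (called lower) or grey, and open diamonds are the estimates with length and GC trends removed. Called genes lie from -0.46 to 0.87, and most of their diamonds lie nearer to 0.

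Counted by separation of the libraries rather than by the test, 8 members (22.2% of those tested) had both fructose libraries above both controls, beside 33.4% of all genes, and 12 (33.3%) had both below, beside 31.6%. The thresholds of the study's methods (a fold change over 1.3 at an unadjusted p-value below 0.05) were applied to edgeR's test, where the study used DESeq2. By them, 7 members were higher and 2 lower, beside 17.6% and 6.18% of all genes. Slc25a5 and Slc25a14 were the X-linked members tested, and neither was called. Of all 413 X-linked genes tested, 97 were higher and 26 lower, with a median log2 fold change of 0.12. Over all 12888 genes tested, 2001 were higher and 1379 lower. With both trends removed, 21 X-linked genes were higher and 15 lower, with a median of -0.0089.

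Over the 36 tested members, the log2 fold change followed transcript composition, with Spearman's rho of -0.79 for GC content and 0.60 for transcript length. All genes tested showed the same directions, with rho of -0.53 and 0.52. The called higher members had a median GC content of 41.6% (39.7% to 45.4%) and a median transcript length of 3510 bases. The called lower members had a median GC content of 58% (54.2% to 60.9%) and a median length of 1711 bases, beside 50.5% and 3157 bases for all genes tested. Once both trends were removed, rho over the members was -0.10 for GC content and -0.03 for length. The removal was fitted on these same properties, so small values follow from its construction. The genes of a library share its preparation, so these points are not independent, and whether the trend is technical was not tested.

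**Figure D3:**
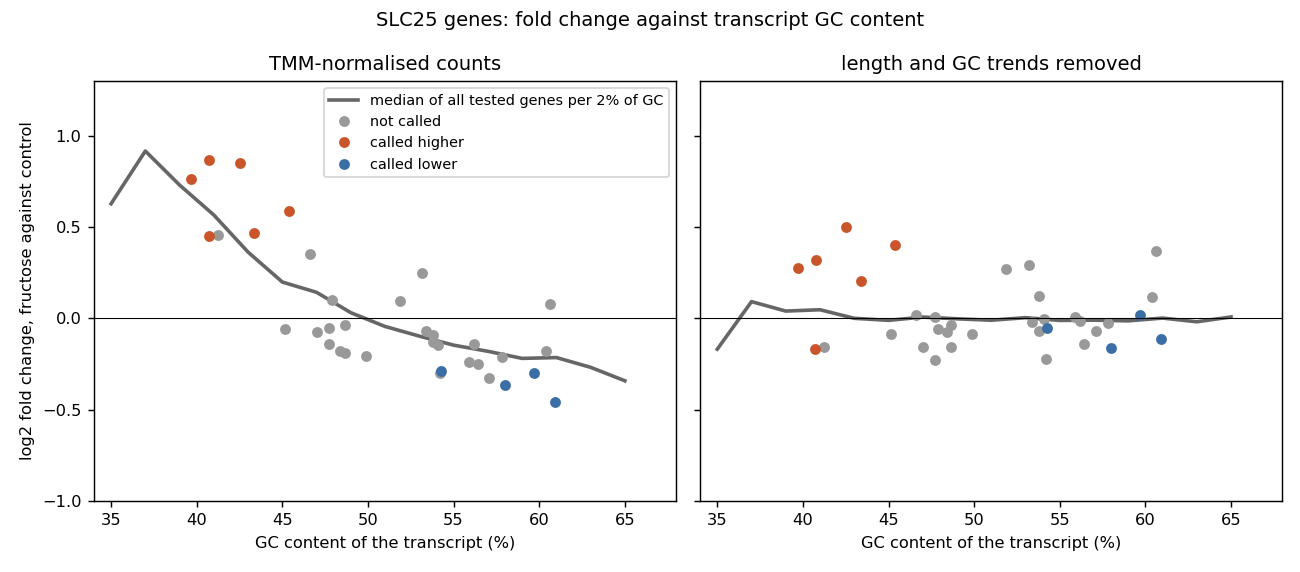
Log2 fold change of 35 tested SLC25 genes against GC content of the transcript, with TMM-normalised counts (left) and with length and GC trends removed (right); the line is the median of all tested genes in bins of 2% GC, and colours keep the calls of the left fit. On the left the genes called higher have 39.7% to 45.4% GC and those called lower 54.2% to 60.9%. On the right the line is near 0, which follows from the removal of the trend.

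The balance within paralog pairs was computed per transcript length in each library. Shares within a library do not depend on its scaling, but they keep any trend with length or GC content. An exact permutation test of 2 against 2 libraries cannot go below p = 0.333, so the shares are given without a test. Slc25a4 made up 11.3% and 12.2% of the ADP/ATP pair in control and 14.2% and 13.8% in fructose. The groups did not overlap, with means of 11.8% ± 0.66 and 14% ± 0.221 (SD, n = 2). Separation of the groups was common among single genes, with 33.4% of all tested higher and 31.6% lower in both fructose libraries. In plain counts the means were 17.2% and 20.2%. Slc25a24 took 13.6% and 20.3% of its sum with Slc25a25 in control against 24.8% and 30.8% in fructose. Within the iron pair, Slc25a37 took 17.4% and 15.4% against 20.5% and 21%, Slc25a28 being the called gene of the pair. Slc25a14 made up 39.4% and 44.1% of its pair with Slc25a30 in control and 32.2% and 30.5% in fructose.

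Slc25a34 was 39.9% and 43.4% of its sum with Slc25a35 in control and 29.0% and 35.3% in fructose. Slc25a33 was 80.4% and 85.9% of the pyrimidine pair in control and 78.2% and 76.8% in fructose. Slc25a42 kept at least 93.4% of the coenzyme A pair in every library and Slc25a39 at least 99.3% of the glutathione pair, so the calls of Slc25a16 and Slc25a40 concern the minor gene of each. Slc25a22 made up at least 99.8% of its pair with Slc25a18 and Slc25a15 at least 97.3% of its pair with Slc25a2. The groups overlapped for both of these pairs, for Slc25a12 with Slc25a13, for Slc25a10 with Slc25a11 and for Slc25a23 with Slc25a25.

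**Figure D4:**
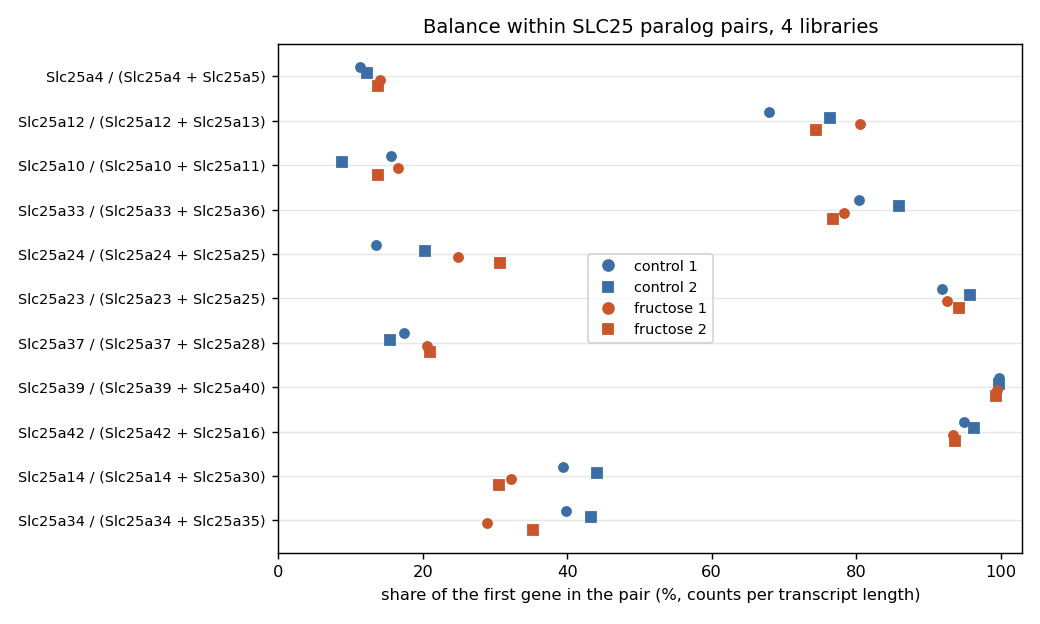
Share of the first gene in the summed level of each SLC25 paralog pair, in percent of counts per transcript length, one point per library; circles and squares are the first and second library of a group, blue control and orange fructose. Slc25a4 holds 11.3% to 14.2% of its pair with Slc25a5 and lies higher in both fructose libraries, and the points of Slc25a12, Slc25a10 and Slc25a23 overlap between groups.

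Genes that work with the carriers were counted from fixed lists. Of 7 other members of the carrier superfamily, 1 fell, the outer membrane protein Mtch1 (log2 -0.28, edgeR adjusted p = 0.028, and 0.016 with both trends removed), beside 10.7% of all genes called lower. The citrate carrier Slc25a1 and the carnitine carrier Slc25a20 had log2 fold changes of -0.03 and -0.21, Ucp1 -0.10, Ucp2 -0.18 and Ucp3 0.34, none of which passed. Carriers reach the inner membrane through the receptor TOM70, the small TIM chaperones and the TIM22 complex. Of 10 such genes, Tomm70a rose (log2 0.46, edgeR adjusted p = 0.0034, and -0.21 with both trends removed), and Timm10b and Timm13 fell (log2 -0.39 each, edgeR adjusted p = 0.0058 and 0.0066). Timm10b was the one of these that also fell with both trends removed (log2 -0.45, adjusted p = 0.0084). Of 4 malate-aspartate shuttle enzymes Mdh2 fell (log2 -0.31, edgeR adjusted p = 0.031, and -0.031 with both trends removed), and of 5 genes of the pyruvate carrier and the porins Vdac2 fell (log2 -0.26, edgeR adjusted p = 0.044, and -0.16 with both trends removed). Beside the calls in each of these lists, 15.5% of all genes tested were called higher and 10.7% lower. With both trends removed these shares were 3.4% and 3.23%. Of the calls in these lists, only that of Timm10b was kept with both trends removed.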

How the data were processed

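RNA-seq of fetal BAT was deposited as raw counts per gene, which the authors had made from filtered reads. The submitters' processing notes name fastp, Bowtie2 2.0.0.5, TopHat2 2.0.0, StringTie 2.2.0 and mm10. Per the study's methods, assembled transcripts were merged with Cuffmerge, and gene counts were taken from the merged annotation. The use of strand and the handling of multi-gene reads are not given in the sources used here. The 4 single-library tables held the same counts as the total table. Symbols, exon lengths, GC content and coordinates came from GENCODE M21 (GRCm38), in which 43 identifiers had no match. Slc25a52 was not analysed here.

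Genes kept by filterByExpr (12888) were tested with edgeR 4.0.16 in R 4.3.3 (TMM, quasi-likelihood test, two-sided, no covariate, all 4 libraries, Benjamini-Hochberg adjustment over all tested genes). The biological coefficient of variation was 8.52%. The SE of a log2 fold change was worked back from edgeR's test, as its absolute value divided by the square root of the F statistic. Trends were removed as lowess offsets (span 0.3) on transcript length and GC content within each library. TPM was computed here from the counts and exon lengths. Alternatives were DESeq2 1.42.0, other scalings and filters, a replicate block, and each library left out. On simulated counts with 200 genes changed 2-fold among 12888, edgeR recovered 86.5% with 7 false calls, and DESeq2 76% with 3. The simulation used the same dispersion for every gene and no length or GC trend. Its changes were also larger than those of the called members, so these rates need not hold for the calls above. Members of the rule are reported, with 1 exception that is not reported here by itself but counts in the totals, with values per library for those called, in a paralog pair or among the 5 most abundant; Slc25a44, Slc25a32 and Vdac2 were named outside this rule, after their values were seen. Members, substrate classes and gene lists were chosen with earlier results of these data known. Promoters came from RefSeq, Slc25a2, Slc25a26, Slc25a27, Slc25a32, Slc25a35, Slc25a37, Slc25a41, Slc25a44, Slc25a46 and Slc25a51 being among those without a window.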

Additional observations from a re-analysis of the deposited data

How the results depend on the processing

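Beside 6 higher, 5 lower and a median of -0.11, the counts and the median moved as follows, and the cause was not tested unless an alternative's construction shows it. DESeq2 called 3 higher, without Slc25a24, Slc25a40 and Slc25a30 (adjusted p = 0.054, 0.13 and 0.13), and 4 lower, without Slc25a34 (0.077). Over all 12888 genes, DESeq2 called 1360 higher and 1045 lower, beside 2001 and 1379 with edgeR's test. No filter on low counts gave 7 higher and 5 lower. A stricter filter, DESeq2 size factors in edgeR, and library sizes without mitochondrial and haemoglobin genes each gave 6 and 5. Scaling by library size only called 3 lower with a median of -0.049, where the median of all genes moved to 0.063. Over all genes that scaling called 859 lower. The study's thresholds, applied to edgeR's test, gave 2 lower. Removal of the length trend gave 1 lower and a median of -0.063, of the GC trend 0 higher and 0 lower (2 and 7 at an unadjusted p-value under 0.05) and -0.072, and of both trends 0, 0 and -0.033. With 1 library left out, the median ran from -0.11 to -0.053, and 2 to 8 members were lower and 4 to 8 higher: 8 and 8 without control replicate 1, 2 lower and 4 higher without fructose replicate 2. A lone library was assumed to vary like the other group. Of the 11 called members, 0 were called in all 15 alternatives.

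The replicate numbers did not pair the libraries (correlation of deviations -0.0266). With the replicate block 7 were higher, 5 lower and the median was -0.088, Slc25a32 being the change. With the replicate block and both trends removed, 1 was higher (Slc25a10), 0 lower, and the median was -0.036.

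Log2 values changed sign in these members. Under library size only, Slc25a17 was 0.0012, Slc25a14 0.0046 and Slc25a37 0.022. Without the length trend, Slc25a5 was 0.029, Slc25a17 0.098, Slc25a33 0.046, Slc25a14 0.091 and Slc25a51 -0.042. Without the GC trend, Slc25a42 was 0.012, Slc25a29 0.040, Slc25a32 -0.051, Slc25a33 0.0098, Slc25a36 -0.10, Slc25a51 -0.0014 and Slc25a44 0.019. Without both trends, Slc25a39 was 0.020, Slc25a29 0.12, Slc25a32 -0.16, Slc25a33 0.12, Slc25a14 0.0093, Slc25a36 -0.17, Slc25a38 0.0094 and Slc25a51 -0.058. With the replicate block as well, the same genes were 0.019, 0.12, -0.14, 0.13, 0.0090, -0.17, 0.0058 and -0.053, and Slc25a45 was 0.0078. Over the 4 leave-outs, Slc25a13 ran from -0.42 to 0.40, Slc25a45 from -0.33 to 0.074, Slc25a25 from -0.45 to 0.28, Slc25a37 from -0.10 to 0.026, Slc25a51 from -0.048 to 0.27, Slc25a42 from -0.29 to 0.026, Slc25a17 from -0.16 to 0.042, Slc25a10 from -0.27 to 0.54, Slc25a33 from -0.27 to 0.12, Slc25a44 from -0.17 to 0.024 and Slc25a14 from -0.15 to 0.038.

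Without control replicate 2, the calls of Slc25a11, Slc25a30, Slc25a34 and Slc25a40 were lost (adjusted p = 0.051, 0.14, 0.34 and 0.091, edgeR). The same 4 were lost without fructose replicate 1 (0.09, 0.15, 0.12 and 0.068) and without fructose replicate 2 (0.18, 0.11, 0.0501 and 0.23), the last also losing Slc25a39 (0.29) and Slc25a24 (0.09). Calls gained, other than those in the report, were Slc25a42 (-0.29), Slc25a32 (0.75) and Slc25a23 (-0.38) without control replicate 1, and Slc25a25 (-0.45) and Slc25a51 (0.27) without control replicate 2. Slc25a13 and Slc25a14, with at most 42 counts in any library, are limited by depth.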
